A study of Homo sapiens with 9 samples.

Results

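CDK9 was mapped on the chromatin of A375 cells by chromatin immunoprecipitation and sequencing (ChIP-seq), and its sites in vehicle-treated cells were compared with those in cells given A771726 together with nucleotides. The members are all peaks of these 2 deposited peak lists: 3462 CDK9 peaks in DMSO and 3099 with A771726 plus nucleotides, or 6561 of the 27469 peaks of the 6 lists read from the series. Peaks of the 2 lists that had at least 1 bp in common were counted as shared. All coordinates are hg19, as deposited.

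A375 is a human malignant melanoma cell line. Cells were treated for 24 h, either with DMSO, the solvent control, or with A771726 at 25 µM and added nucleotides, and no genetic change is labelled in either group. The amount of nucleotides is not given in the sources used here. CDK9 with A771726 at 25 µM alone, and DDX21 in DMSO and with A771726 plus nucleotides, 1 library each from the same cells and time, were used only for overlaps. The antibody was CDK9 C-20 in both groups compared, libraries were amplified with 18 PCR cycles, and each group was 1 library of 1 cell line. With 1 library per group no difference could be set against replicate error, no p-value was computed, and "higher" and "lower" below describe these 2 libraries.

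CDK9 is the catalytic subunit of P-TEFb, the kinase complex that phosphorylates RNA polymerase II and its pausing factors and so releases the polymerase from the promoter-proximal region into the gene body. Much of the cell's P-TEFb is held inactive in a ribonucleoprotein built on the small nuclear RNA 7SK. Leflunomide is converted in the body to A771726, which blocks dihydroorotate dehydrogenase and with it the making of pyrimidine nucleotides, a step that added nucleotides bypass. The comparison asks where CDK9 sits when the inhibitor is present but nucleotides are supplied, set against cells that never saw the inhibitor.

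About as many CDK9 peaks had a partner in the other list as had none. Of the DMSO peaks, 1564 or 45.2% (exact Clopper-Pearson 95% interval 43.5 to 46.9) overlapped a peak with nucleotides, and of the peaks with nucleotides, 1568 or 50.6% (48.8 to 52.4) overlapped a DMSO peak. All such intervals take peaks as independent of each other and cover only counting error. Merged across the lists, the peaks formed 4906 sites, of which 1477 (30.1%) were in both lists, 1898 only in DMSO and 1531 only with nucleotides. By length, 374919 bp lay in peaks of both lists, which was 45.1% of the sequence under DMSO peaks and 48.8% of that under peaks with nucleotides. Most partners stood 1 to 1, but 85 DMSO peaks and 81 peaks with nucleotides overlapped 2 or more peaks of the other list, at most 4. At the limit of 1 bp, 9 DMSO peaks with an overlap of at most 10 bp had a median fold enrichment of 4.87, and 9 that missed a partner by at most 10 bp had 4.23. With nucleotides these medians were 3.62 for 8 peaks inside and 4.07 for 8 outside.

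The libraries were close in depth as far as the lists show it. Read totals per library were not at hand. The lowest local background that the peak caller assigned was 1.17 fragments in DMSO and 1.24 with nucleotides, and the number of tags estimated from it was 1.05 times the DMSO number in the library with nucleotides. The median number of fragments over a summit (the pileup) was 23 in DMSO and 24 with nucleotides, and the median width was 186 bp in both lists. The median local background differed more than the lowest one, at 4.16 fragments in DMSO and 4.85 with nucleotides. Each list held 1 peak on the mitochondrial genome, and these overlapped. DDX21, mapped in the same treatments, gave a far higher overlap of its own: with its lists cut to the same lengths as the CDK9 lists, 86.1% of 3462 DMSO peaks and 96.0% of 3099 peaks with nucleotides were shared.

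Ranked by −log10 q, the strongest CDK9 peaks were nearly all shared, and the share was lower among weaker ones. Peaks were ranked within their list by the −log10 q of the authors' peak caller and cut into 10 deciles; that value and the fold enrichment (summit pileup over local background) are the authors' and describe peaks within their list only. In the top decile 317 of 346 DMSO peaks, or 91.6% (88.2 to 94.3), had a peak with nucleotides, and 288 of 309 peaks with nucleotides, or 93.2% (89.8 to 95.7), had a DMSO peak. The ninth decile held 66.8% and 76.1%, the seventh 53.8% and 56.8%, the fifth 34.1% and 35.8%, and the fourth 32.7% and 41.0%. From the fifth decile down the shares lay between 24.5% and 34.1% in DMSO and between 30.6% and 41.0% with nucleotides, without a steady order. In the lowest decile 24.5% (20.1 to 29.4) of DMSO peaks and 30.6% (25.6 to 36.1) of peaks with nucleotides were shared. The first 139 DMSO peaks were all shared, and the first unshared one ranked 140. In the list with nucleotides the first unshared peak ranked 4. This peak and the next unshared one, ranked 10, lay in 1 stretch of chromosome 8. The unshared peak after them ranked 75. With deciles cut by fold enrichment instead, fewer peaks of the top decile were shared, 76.9% in DMSO and 74.4% with nucleotides.

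**Figure D1:**
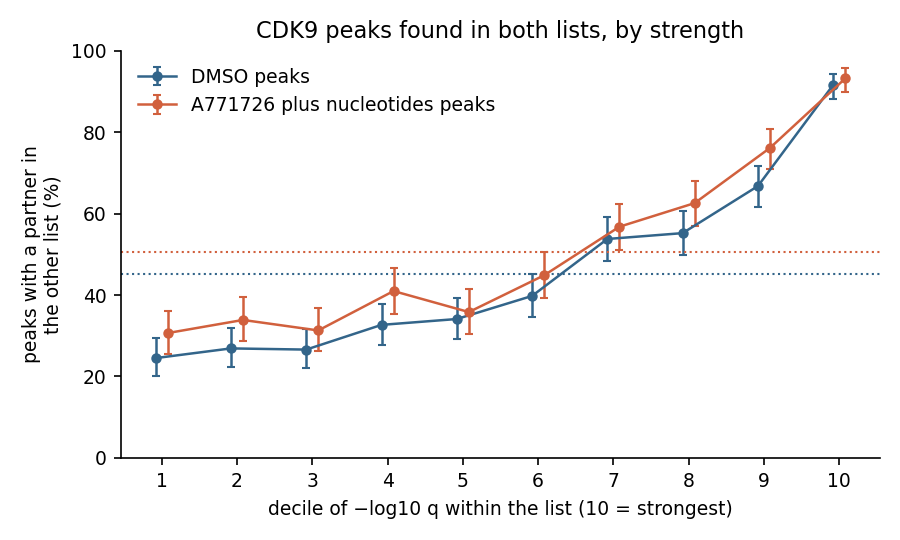
Share of CDK9 peaks with a partner in the other list (y axis, percent) by decile of −log10 q within the list (x axis, 10 strongest), for DMSO peaks and for peaks with A771726 plus nucleotides. Points are shares with exact 95% intervals for counting error, dotted lines the whole lists at 45.2% and 50.6%; the share rises from 24.5% and 30.6% in decile 1 to 91.6% and 93.2% in decile 10.

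Several of the strongest shared sites lie where known noncoding RNA genes are. No annotation of hg19 was at hand, so gene names here and below are general knowledge of where these regions lie; only the chromosome was checked, against the RefSeq table of GRCh38.p14, and no gene was assigned by position. The peak ranked 1 in both lists lay on chromosome 9 in the 9p21 region between CDKN2B-AS1 and DMRTA1, at chr9:22158906-22159453 in DMSO, with 95 fragments over its summit in DMSO and 105 with nucleotides. A further peak of that region, chr9:22147625-22148652, ranked 5 in DMSO and 9 with nucleotides, with 83 and 72 fragments.

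The second DMSO peak lay at chr6:52860273-52860807, the locus of RN7SK, which encodes the 7SK RNA that holds P-TEFb inactive. Its summit held 74 fragments in DMSO and 67 with nucleotides. The local background was 4.16 and 9.01 fragments, so a similar pileup gave a fold enrichment of 14.5 within the DMSO list and 6.80 within the other, and rank 2 against rank 35. This site had no other CDK9 peak of either list within 10 kb and also carried a CDK9 peak of the list with A771726 alone.

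At chr3:149293237-149294375, in the region of WWTR1, which encodes the transcriptional coactivator TAZ, the summit held 87 fragments in DMSO and 52 with nucleotides. At chr11:65190174-65192404, the NEAT1 locus, whose long noncoding RNA builds paraspeckles, it held 82 and 70, and the peak was 2231 bp wide in DMSO and 2389 bp with nucleotides. The MALAT1 locus, a nuclear long noncoding RNA gene next to NEAT1, gave chr11:65266355-65267253 with 59 fragments in DMSO and 73 with nucleotides. Histone gene regions gave chr1:149831517-149832888 with 88 and 77 fragments and chr6:26156464-26158095 with 49 and 40. The remaining 2 of the first 10 shared DMSO peaks, both on chromosome 1, were chr1:149223655-149224240 with 109 and 87 fragments and chr1:145382693-145383176 with 80 and 55. The summit pileup was lower with nucleotides at 8 of these 10 sites and higher at the first 9p21 site and at MALAT1. Among the first 10 shared peaks ranked in the list with nucleotides it was higher with nucleotides at 9 and lower at 1, so the direction went with the list used for ranking.

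Wide CDK9 peaks were shared far more often than narrow ones, also among peaks of like strength. Of DMSO peaks over 300 bp, 85.9% (82.9 to 88.5) had a partner, against 23.2% (20.5 to 26.0) of those up to 150 bp. With nucleotides the shares were 88.4% (85.6 to 90.7) and 29.1% (26.1 to 32.3). A wide peak offers more bases to overlap, and the part of that in the difference was not tested. Even in deciles 1 to 3, 31 of 62 DMSO peaks over 300 bp were shared, or 50% (37.0 to 63.0), against 18.5% (14.7 to 22.7) of 390 narrow ones. In deciles 4 to 6 these shares were 77.8% of 108 and 21.6% of 343. In the top decile 218 of 219 DMSO peaks over 300 bp had a partner, against 20 of 34 that were wider than 150 bp and at most 200 bp. The exception was the narrowest class of the top decile, where 7 of 7 DMSO peaks and 3 of 3 peaks with nucleotides were shared.

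Unshared peaks were narrower and lower, with fold enrichments closer to those of shared peaks. The median width of DMSO peaks was 242 bp for shared and 164 bp for unshared ones, the median pileup 27 and 20 fragments, and the median fold enrichment 4.70 and 4.26. With nucleotides the median widths were 242 and 163 bp, the pileups 28 and 20, and the fold enrichments 4.51 and 4.21. In the top decile of DMSO, shared peaks had a median width of 415 bp and the 29 unshared ones 202 bp, none of them over 341 bp, while their median fold enrichments were 6.95 and 6.50.

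**Figure D2:**
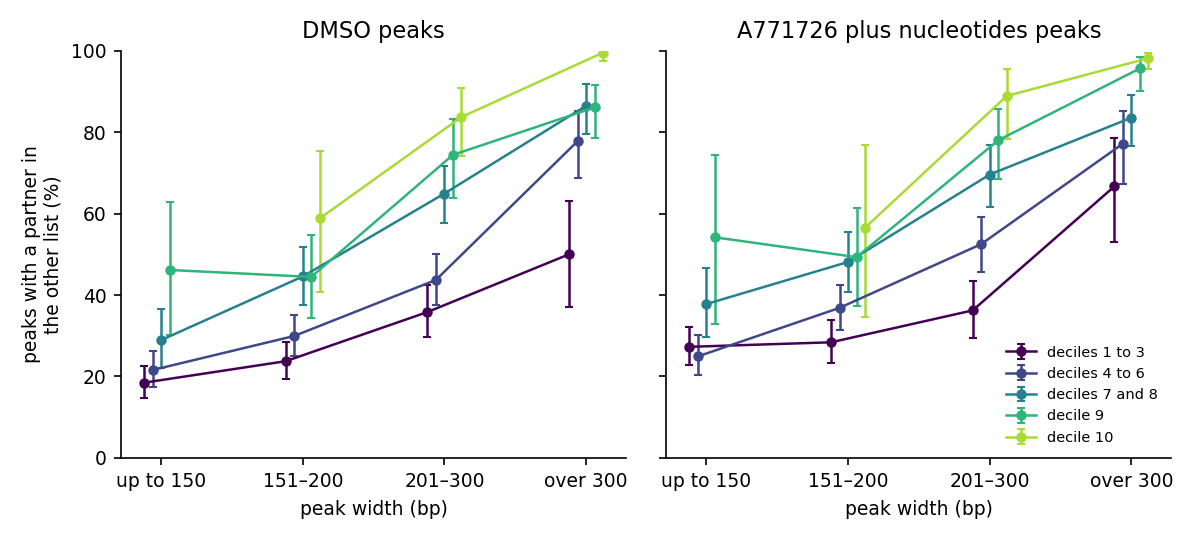
Share of CDK9 peaks with a partner in the other list (y axis, percent) by peak width in bp (x axis) within strata of −log10 q (colours), DMSO peaks left and peaks with A771726 plus nucleotides right. Points are shares with exact 95% intervals, classes under 20 peaks left out; in deciles 1 to 3 the DMSO share goes from 18.5% at up to 150 bp to 50% over 300 bp.

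Where a CDK9 site was in both lists, its height was similar in both libraries. There were 1344 pairs in which 1 DMSO peak and 1 peak with nucleotides overlapped each other and no other, 85.9% of shared DMSO peaks. Their median pileup was 27 fragments in DMSO and 28 with nucleotides. Scaled to the lowest background found in either list, the log2 difference in pileup (nucleotides minus DMSO) had a median of -0.02, with -0.42 and 0.39 as its 10th and 90th percentiles. On this scale 4 pairs were at least 2-fold lower with nucleotides and 0 at least 2-fold higher, and on the unscaled pileups 3 and 2. These pairs had a peak called in both lists, so sites that fell below calling in 1 of them are not among them. The medians of width were 234 and 236 bp, with 669 pairs wider in DMSO and 668 wider with nucleotides.

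The pairs that differed most were few, and their rank in DMSO went with the direction. The lowest with nucleotides, chr7:15598480-15598761, had 36 fragments in DMSO and 16 with nucleotides. It was followed by chr1:8106120-8106313 with 38 and 18, chr7:81267561-81268161 with 23 and 11, and chr10:121446403-121446739 with 50 and 26. All of these were in DMSO decile 9 or 10. In the other direction chr15:59576399-59576540 had 15 and 31 fragments, chr4:7962592-7962762 had 19 and 38, and chr1:27867002-27867135 had 21 and 41. The 9p21 region held 1 of these as well, chr9:22142725-22142869, with 14 and 26. The named pairs that were higher with nucleotides were in DMSO decile 1 or 2. The part of choosing pairs by their difference in this pattern was not tested.

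Summits of paired peaks lay close together. The median distance was 43.5 bp, 75% of pairs lay within 84 bp and the farthest 452 bp apart. The median was 31 bp for the 257 pairs of the top DMSO decile and 46.5 bp for the 70 of the lowest. Across the 1344 pairs, which share a genome and a peak caller, Spearman's rho between the lists was 0.76 for pileup, 0.66 for local background, 0.54 for width, 0.40 for −log10 q and 0.32 for fold enrichment. The order by fold enrichment was thus less alike than the order by pileup, and 128 of the 257 pairs in the top DMSO decile were in the top decile of both lists.

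**Figure D3:**
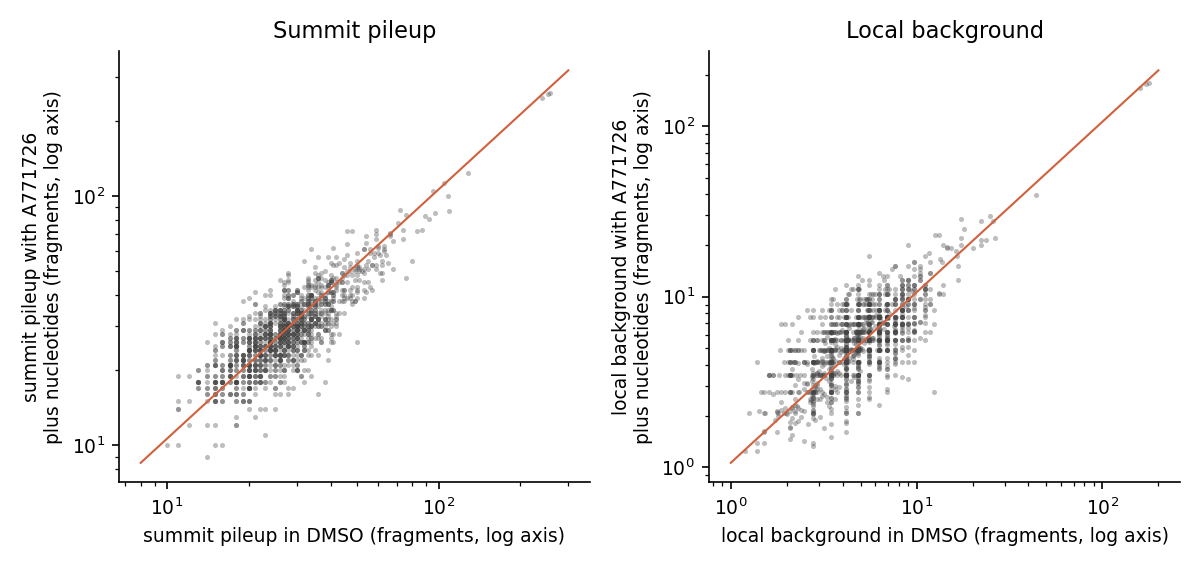
Summit pileup (left) and local background (right) at 1344 paired CDK9 sites, in fragments on log axes, DMSO on x and A771726 plus nucleotides on y; each point is 1 pair and the line has the ratio of the lists' lowest backgrounds. Pileups follow the line (rho 0.76, medians 27 and 28 fragments), and the rho of backgrounds is 0.66. Over all shared peaks the median background was 4.85 fragments in DMSO and 5.54 with nucleotides.

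The strongest peaks found only in DMSO were narrow for their strength, and most stood alone. The first 10 were 159 to 299 bp wide, with 33 to 68 fragments over the summit and fold enrichments of 4.25 to 8.11. Their median width was 212.5 bp, against 186 bp in the whole DMSO list and 387.5 bp in its top decile. Of the 10, 8 had no other DMSO peak within 10 kb, against 65.9% of all unshared DMSO peaks and 53.8% of the list. A DDX21 peak of DMSO cells was overlapped by 6, against 19.3% of all unshared DMSO peaks. Within 10 kb of a peak with nucleotides lay 2, against 31.5% of all unshared ones. The median distance to the nearest peak with nucleotides was 223 kb, and the largest 1501 kb. The first, chr1:228768364-228768522, lay in the array of 5S ribosomal RNA genes (RNA5S1 and its neighbours), which RNA polymerase III transcribes. It had 68 fragments over a background of 15.2 and lay 2.09 kb from a peak with nucleotides. The copies of this array are near-identical, so reads cannot be tied to 1 of them. The highest pileup of the array with nucleotides was 69 fragments. The others with the highest ranks were chr5:58423509-58423807 with 44 fragments, chr14:105282356-105282535 with 33, chr11:77790857-77791044 with 39 and chr9:108006592-108006862 with 38.

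DDX21, an RNA helicase of the nucleolus that also occupies polymerase II genes, was present at many of these. Of the 29 unshared DMSO peaks in the top decile, 16 overlapped a DDX21 peak of the same treatment, or 55.2% (35.7 to 73.6), against 26.8% (22 to 32.1) of the 317 shared ones. They were also more often alone, 21 of 29 against 28.4%, and the part of either in the other was not tested. With nucleotides 7 of 21 unshared top-decile peaks lay on DDX21, against 21.5% of the shared ones.

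The strongest peaks found only with nucleotides lay mostly beside peaks that DMSO cells had too. Of the first 10, 8 were within 10 kb of a DMSO peak, against 35.9% of all unshared peaks with nucleotides. No other peak of their own list lay within 10 kb of 2, against 64.9% of all unshared ones. The median distance to a DMSO peak was 2.53 kb. Their widths ran from 179 to 820 bp and their pileups from 26 to 84 fragments. Away from chromosome 8 the first were chr16:2014645-2014845 with 41 fragments, 45.1 kb from the nearest DMSO peak, and chr4:74573674-74573933 with 32, 3.12 kb away. At chr17:60836519-60836732, with 37 fragments, the nearest DMSO peak was 10 bp away.

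A single stretch of chromosome 8 gave 3 of these 10, all of them near the same single DMSO peak. Between chr8:43092766-43097145 the list with nucleotides had 5 peaks and the DMSO list 1. The unshared ones included chr8:43092766-43093585 with 84 fragments, which ranked 4, chr8:43094687-43095332 with 76, which ranked 10, and chr8:43096523-43097145 with 26. The shared one, chr8:43095829-43096215, ranked 2 with nucleotides, with 61 fragments over a background of 2.77. Its DMSO partner of 128 bp ranked 2998, with 34 fragments over a background of 12.5. So the calls within this stretch differed in background as well as in pileup. The peaks that ranked 2, 4 and 10 also overlapped a CDK9 peak of the list with A771726 alone. Of the 5 peaks with nucleotides, 2 overlapped a DDX21 peak of that treatment. Whether reads of this stretch can be tied to 1 position was not tested.

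CDK9 peaks that stood in groups were shared more often than peaks that stood alone. A run was a set of peaks of 1 list with gaps of at most 10 kb, and a lone peak a run of 1. Of 1862 lone DMSO peaks 32.8% (30.7 to 35) had a partner, against 59.6% (57.1 to 62.0) of 1600 peaks in runs of 2 or more. With nucleotides these were 39.0% (36.6 to 41.4) of 1628 and 63.4% (60.9 to 65.9) of 1471. The largest step came between 1 peak and 2, with smaller and uneven changes beyond. Runs of 2 held 55.9% in DMSO and 57.5% with nucleotides, and runs of 3 or 4 held 58.5% and 67.3%. Runs of 5 to 9 held 68.7% and 66.0%, and runs of 10 or more held 59.2% and 66.3%. Lone peaks made up 39.1% of the shared DMSO peaks and 65.9% of the unshared ones.

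Peaks in runs were also wider, with medians of 215 bp against 170 bp for lone DMSO peaks, and somewhat stronger. Within strata of strength the order held in all 5 strata of both lists. Lone and grouped DMSO peaks were shared at 18.8% and 35.9% in deciles 1 to 3, 26.0% and 48.8% in deciles 4 to 6, 43.0% and 68.3% in deciles 7 and 8, 53.7% and 78.3% in the ninth and 81.1% and 96.6% in the top decile. With nucleotides the pairs were 25.9% and 40.7%, 31.5% and 52.6%, 49.8% and 70.7%, 63.8% and 84.7%, and 89.9% and 94.5%; only in the last did the intervals overlap.

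**Figure D4:**
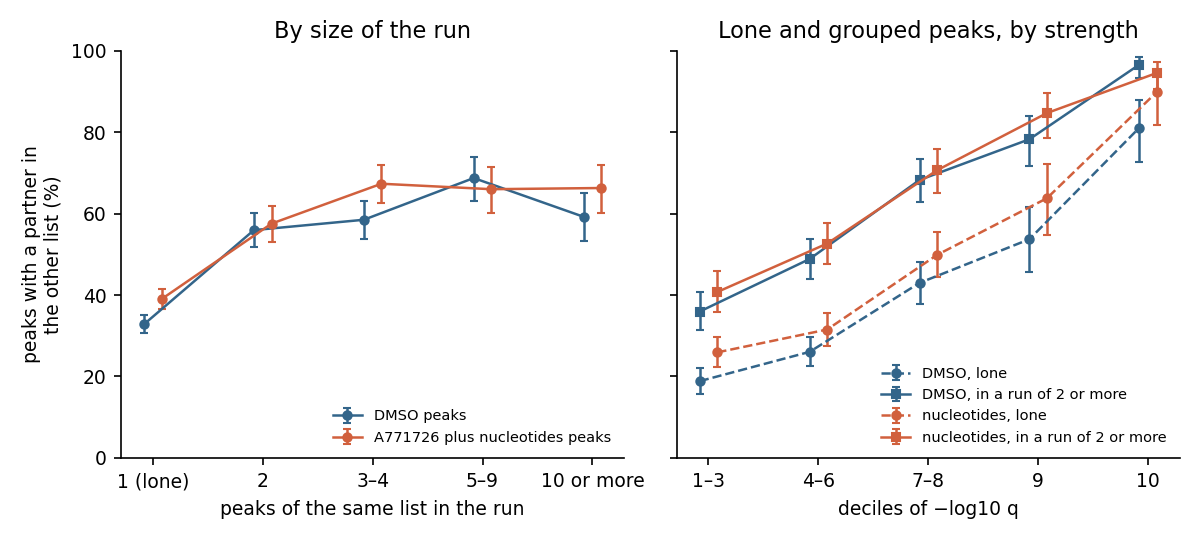
Share of CDK9 peaks with a partner in the other list (y axis, percent) by the number of peaks of the same list in the run (left) and, for lone peaks (dashed) and peaks in runs of 2 or more (solid), by deciles of −log10 q (right). Points are shares with exact 95% intervals; lone DMSO peaks are at 32.8% and runs of 2 at 55.9%, and grouped peaks lie above lone ones at every strength in both lists.

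Counted by run instead of by peak, every run of 5 or more peaks had a peak of the other list in its span. A peak of the other list lay within the span of 79.4% (74.2 to 83.9) of the 286 DMSO runs of 2, 87.9% of the 140 runs of 3 or 4, all 43 runs of 5 to 9 and all 19 runs of 10 or more. With nucleotides the shares were 79.9% of 259, 94.3% of 123, and all 48 and all 19. A longer span offers more room for a peak of the other list, and the part of that was not tested. Runs of 5 or more peaks, called clusters below, numbered 62 in DMSO with 568 peaks and 67 with nucleotides with 552. Each had at least 1 shared peak; 364 and 365 of their peaks were shared, or 64.1% (60.0 to 68.0) and 66.1% (62.0 to 70.1), and per cluster the share ran from 20% to 100% with medians of 70.1% and 66.7%. All peaks were shared in 6 clusters of DMSO and 11 with nucleotides.

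With both lists pooled there were 209 clusters, with 1012 DMSO peaks and 980 peaks with nucleotides, and none held peaks of 1 list only. Pooling counts a shared site once in each list, which favours clusters present in both. With overlapping peaks merged to 1 site first, an alternative chosen after seeing the data, there were 98 clusters of 5 or more sites, of which 0 held sites of 1 list only and 3 held no shared site. In the pooled clusters DMSO peaks were more numerous in 85 clusters, equal in 35 and fewer in 89, and in 138 the numbers differed by at most 1. The 10 clusters with most peaks held 175 DMSO peaks and 168 with nucleotides, of which 103 and 99 were shared, 58.9% in either list. Of the 209 clusters, 181 held no CDK9 peak that overlapped a DDX21 peak of its treatment. Such peaks were a minor part of the whole lists too, 616 of 3462 in DMSO and 420 of 3099 with nucleotides. The part of this in the count of clusters was not tested.

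The largest clusters had CDK9 peaks in both libraries, but many of their peaks had no overlapping peak called in the other list. Whether the other library had weaker signal at those positions was not tested. The region of MIR100HG, a long noncoding RNA gene that hosts microRNAs, spanned chr11:122007854-122073949 with 30 DMSO peaks and 25 with nucleotides, 14 and 16 of them shared. The summed peak lengths were 11065 and 11511 bp and the highest pileups 62 and 61 fragments. The region of SERPINE2, which encodes a secreted serine protease inhibitor, spanned chr2:224864897-224907328 with 28 and 22 peaks, of which 9 in each were shared. It also held 31 of the 290 CDK9 peaks called with A771726 alone. The region of the microRNA genes MIR221 and MIR222, chrX:45607254-45634727, had more peaks with nucleotides, 22 against 16 in DMSO, with 11 shared in each and highest pileups of 32 and 30.

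At MALAT1 and MIR21 nearly every peak was shared, and at NEAT1 fewer were. NEAT1, at chr11:65186643-65209586, had 16 DMSO peaks and 17 with nucleotides, 12 and 10 of them shared. MALAT1, at chr11:65264806-65275434, had 16 and 12, of which 15 and 12 were shared, so 1 DMSO peak there was without a partner. MIR21, at chr17:57906633-57920914, was similar, with 11 and 10 peaks of which 10 and 10 were shared and highest pileups of 60 and 64 fragments. The 9p21 cluster, chr9:22141715-22170877, had 11 and 12 peaks with 10 and 9 shared. In contrast WWTR1, at chr3:149286425-149321548, had 16 and 15 peaks with 8 shared in each, and the SOX5 region, chr12:24080857-24103492, had 14 and 16 with 6 and 7 shared and highest pileups of 29 and 30 fragments.

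Further clusters lay at single protein-coding loci, chosen after their values were seen. SPRY4, which encodes a feedback inhibitor of receptor tyrosine kinase signalling, at chr5:141676472-141705652, had 12 DMSO peaks and 10 with nucleotides, with 6 shared in each and highest pileups of 39 and 57. SPRY2, of the same family, at chr13:80907027-80917154, had 11 and 9 peaks, with 9 and 5 shared. DUSP4, a phosphatase of MAP kinases, at chr8:29198748-29209857, had 11 and 5, and all 5 peaks with nucleotides were shared; its highest pileups were 31 and 33 fragments. PHLDA1, at chr12:76414148-76425841, had 9 and 10 peaks with 6 and 8 shared. The cluster at SOX10, a neural crest and melanocyte transcription factor, chr22:38365089-38381970, had 10 and 7 peaks, with 3 and 2 shared.

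Histone and short noncoding RNA loci followed. The region of H3C1 on chromosome 6, chr6:26020591-26056756, had 11 DMSO peaks and 10 with nucleotides, with 8 and 7 shared. That of H4C14 on chromosome 1, chr1:149804084-149833122, had 11 and 7, with 9 and 7 shared, covering 8361 and 8143 bp. SNHG3, a host gene of small nucleolar RNAs, at chr1:28832480-28837358, had 8 DMSO peaks and 3 with nucleotides, with 3 and 2 shared and highest pileups of 32 and 37. The 5S array, chr1:228746025-228781929, had 11 and 8, with 6 shared in each and highest pileups of 68 and 69; its copies are near-identical, so reads there cannot be tied to 1 gene.

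**Figure D5:**
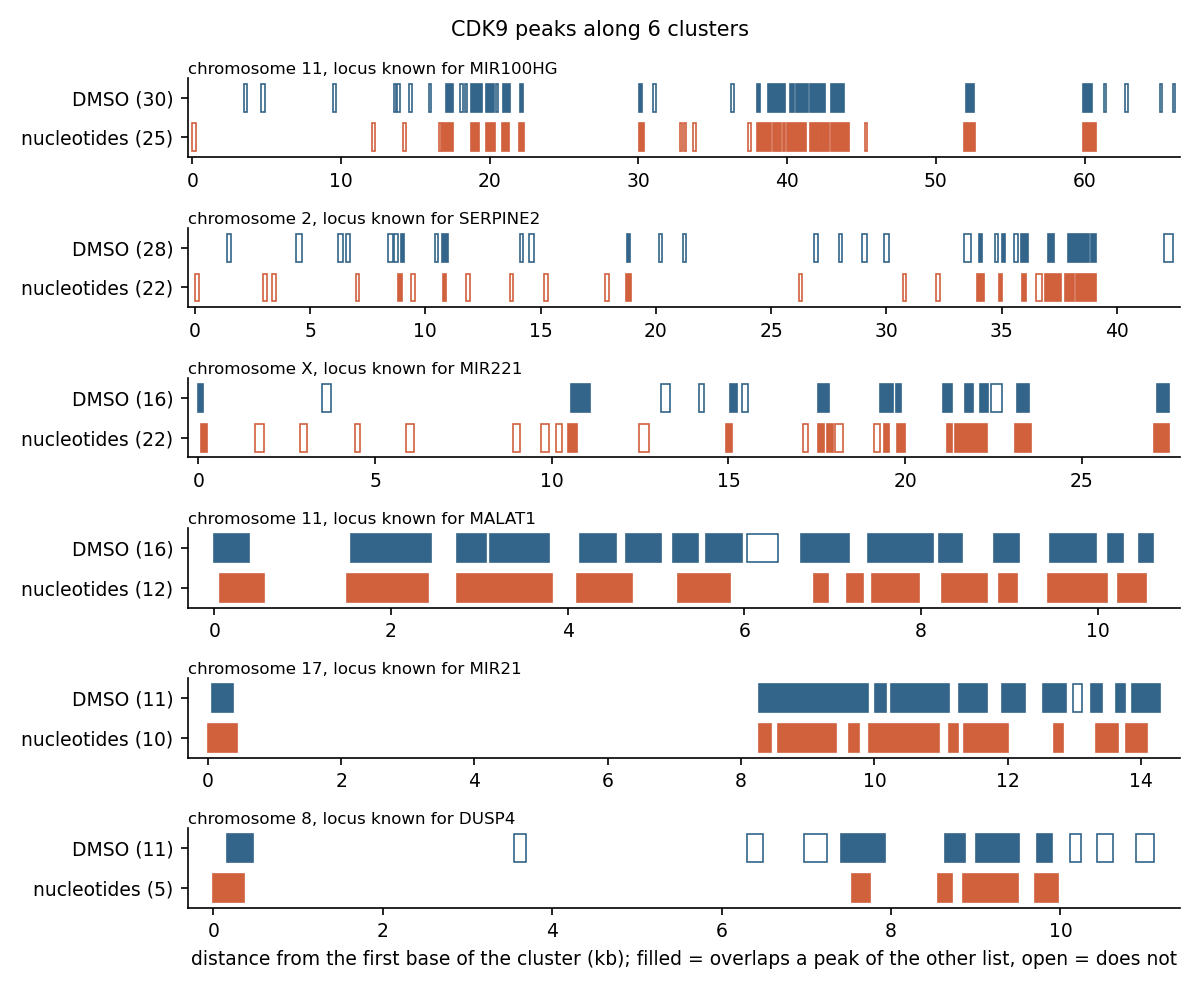
CDK9 peaks of 6 clusters drawn to scale along the distance from the cluster's first base (x axis, kb), DMSO above and A771726 plus nucleotides below, with the number of peaks in parentheses; filled boxes overlap a peak of the other list and open boxes do not. In MALAT1 and MIR21 nearly all boxes are filled (15 of 16 and 10 of 11 in DMSO), while in SERPINE2 9 of 28 DMSO boxes are.

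Clusters whose peak numbers differed most still had peaks of both lists. At chr16:22018627-22038869 there were 19 DMSO peaks and 11 with nucleotides, with 10 and 9 shared. At chr7:15529040-15551226 there were 9 and 16, with 8 shared in each. Highest pileups were 37 and 34 fragments in the first and 39 and 48 in the second.

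Unshared peaks lay at all distances from the other list. Of the 1898 unshared DMSO peaks 15.9% (14.3 to 17.6) lay within 1 kb of a peak with nucleotides, 31.5% (29.4 to 33.7) within 10 kb and 52.4% within 100 kb. Of the 1531 unshared peaks with nucleotides 18.4%, 35.9% and 57.2% lay within these distances of a DMSO peak. For lone unshared peaks the share within 10 kb was 8.71% in DMSO and 11.3% with nucleotides, and for unshared peaks in runs of 2 or more it was 75.6% and 81.2%. This contrast is largely set by the definition: a peak in a run has a neighbour of its own list within the same 10 kb, which is often shared, and a lone peak has none.

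Most CDK9 sites that were also called with A771726 alone were in both lists. That list held 290 peaks, of which 203 overlapped peaks of both lists, 22 of the DMSO list only, 19 of the list with nucleotides only and 46 of neither. Of the 187 DMSO peaks with such a peak 89.3% (84.0 to 93.3) were shared, against 42.7% (41.0 to 44.4) of the rest, and with nucleotides 94.4% of 178 against 47.9%. These peaks were strong ones, 103 of the 187 in the top DMSO decile, but the share was higher in each of the 5 strata of strength in both lists. In DMSO deciles 4 to 6 it was 61.1% (35.8 to 82.7) of 18 against 35.1% of 1021.

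Over the whole lists, the share was lower at DDX21 sites in DMSO and much the same with nucleotides. DMSO peaks on a DDX21 peak were shared at 40.6% (36.7 to 44.6) and the others at 46.2% (44.3 to 48.0), and with nucleotides at 51.0% and 50.5%. Within strata of strength it was lower on DDX21 in 5 of 5 strata in DMSO, with intervals apart in 3, and in 4 of 5 with nucleotides, with intervals apart in 0. Of the DMSO peaks on DDX21, 80.8% were lone, against 47.9% of the others. Among lone DMSO peaks the order was the opposite, 34.5% (30.4 to 38.9) on DDX21 and 32.2% (29.7 to 34.7) elsewhere, and in runs of 2 or more it was 66.1% and 59.0%. Among lone peaks with nucleotides the shares were 45.7% and 37.2%, and in runs 75.7% and 62.8%.

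Up to a local background of 50 fragments, the share was higher at sites of higher background. It was 30.9% (27.7 to 34.2) of DMSO peaks at a background of up to 3 fragments, 45.4% from 3 to 5, 50.5% from 5 to 8 and 65.9% (60.5 to 71.1) from 8 to 50. With nucleotides these were 29.3%, 47.9%, 58.3% and 73.8%. These shares were not taken within strata of strength or pileup, so the part of either in this order was not tested. Of the few peaks above 50 fragments, 3 of 5 in DMSO and 3 of 8 with nucleotides were shared. By chromosome, over those with at least 20 peaks, the DMSO share ran from 38.5% on chromosome 16 to 53.4% on chromosome 13, and none of the 23 intervals left out 45.2%. With nucleotides it ran from 42.2% on chromosome 14 to 59.3% on chromosome 6, whose interval of 51.8 to 66.6 was the 1 of 23 that left out 50.6%.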

How the data were processed

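Deposited peak lists of CDK9 ChIP-seq in 2 groups (1 library each, grouped by title) were compared; CDK9 with A771726 alone and the DDX21 lists were used for overlaps only, and the inputs were not used here. The tools were Bowtie and MACS2 2.0 and the build hg19, per the submitters' processing notes; for roles, parameters and control, the sources used here give nothing. Each deposited list gives position, summit, fold enrichment (a ratio), −log10 p and −log10 q per peak, called per library, and a deposited score equal to 10 times −log10 q, rounded down. Pileup and local background were solved from the deposited fold and −log10 p, taking fold as (pileup + 1)/(background + 1) and p as a Poisson tail; whole-number pileups met both within 0.000114 of −log10 p. The solving was tested on values made with the same formulas, which cannot show that the peak caller used them. The overlaps were tested on shifted copies of the lists. Relative tags are the lowest background over the shortest peak. Regions named are ranked by −log10 q (the first 10 shared, DMSO-only and nucleotide-only peaks), by number of peaks (the first 10 clusters) and by largest difference in number; the further loci were chosen after their values were seen. The members and lists were chosen with earlier results of these data known. Gene assignment, gene list counts and marker checks were not made without an hg19 annotation. Work was done in Python 3.11.15 with pandas 2.3.3, numpy 2.4.6 and scipy 1.17.1. Alternatives were other overlap rules, distances, thresholds, cluster definitions and left-out peaks.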

Additional observations from a re-analysis of the deposited data

How the results depend on the processing

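Each share was recomputed under other settings, 38 values in all, of which 20 fell inside the 95% interval of the main value and 18 did not. Asking for 50% of the shorter peak to be covered gave 41.5% for DMSO peaks and 46.8% for peaks with nucleotides, 58.4% and 61.0% for clustered and 38.2% and 43.7% for unclustered ones. Peaks within 1 kb gave 53.9% and 59.7%, and the same number of top peaks 47.7% and 48.2%. With clusters of 3 or more peaks the unclustered shares were 38.2% and 43.5%. Ranked by fold enrichment, the top decile was shared at 76.9% in DMSO and 74.4% with nucleotides, the largest shift of a top-decile value among these. Unshared DMSO peaks near the other list made up 26.6% at a −log10 q of at least 5 and 15.9% at a distance of 1 kb. Chosen after seeing the data, gaps of 5 kb gave 35.1% for lone DMSO peaks, and the 50% rule gave 36.4% for lone peaks with nucleotides; leaving out the cluster with most peaks kept both clustered shares within their intervals. Clustered peaks were shared more often than unclustered ones in 8 of 8 such comparisons. On unscaled pileups, also chosen after, 3 pairs were at least 2-fold lower and 2 at least 2-fold higher with nucleotides. Limits: 1 library per group leaves no replicate error, read totals are unknown, and a peak missed in 1 list may be weak there, not absent.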
